A study of Mus musculus with 2 samples.

Results

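Glutamate receptor genes were compared between a mutant and a control mouse retina, gene by gene and class by class. The 31 genes, taken by name from the 23356 gene symbols of the table, encode 23 receptor subunits (4 AMPA, 5 kainate, 7 NMDA, 1 delta and 6 metabotropic), 5 auxiliary subunits and 3 postsynaptic scaffold proteins. All 31 had rows, which held 47 RefSeq transcripts, and the level of a gene is the sum of FPKM (fragments per kilobase of transcript, scaled to the depth of the library) over its transcripts. RNA from retinas of pups at postnatal day 15 was sequenced in 1 triple mutant library and 1 control library. The triple mutant carried homozygous floxed Dnmt1, Dnmt3a and Dnmt3b, the genes of the maintenance and the de novo DNA methyltransferases, and was positive for Rx-Cre. The control was homozygous for the same 3 floxed genes and Rx-Cre negative; its sample title, WT, thus stands for floxed genes without Cre. The strain label reads C57BL/7 for the triple mutant and C57BL/6 for the control. Cre was placed under regulatory sequence of Rx, a gene of the retinal lineage, so cells that enter the retina from elsewhere, such as microglia and vessel cells, lie outside its known domain. The sources used here do not say how many animals went into each library. With 1 library per group there was no replicate check and no test, so every value compares the libraries and not the genotypes. Ranges in brackets are 95% intervals from the fragment counts behind each value, and they cover counting error only.

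Glutamate is the transmitter of photoreceptors, bipolar cells and ganglion cells. AMPA, kainate and NMDA receptors are ion channels built from 4 subunits, and metabotropic receptors act through G proteins. Horizontal cells and OFF bipolar cells receive the photoreceptor signal through AMPA and kainate receptors, whereas amacrine and ganglion cells use AMPA and NMDA receptors. TARP proteins (the Cacng genes) and Neto proteins travel with AMPA and kainate receptors and tune their gating, and Dlg4, Shank1 and Homer1 anchor receptors in the postsynaptic density.

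An FPKM of 1 over 2 kb of transcript rested on about 116 fragments in the triple mutant library and 98.0 in the control library. Among the targeted genes, Dnmt1 stood at 53.5% of the control level in the triple mutant and Dnmt3a at 64.1%. Dnmt3b stood at 80.4%, but its level was low in both libraries, at 0.827 FPKM in the triple mutant and 1.03 in the control. These are levels of whole transcripts, and the loss of the floxed exons was not examined. Retinal markers were high in both libraries: the summed FPKM of 8 rod genes was 9850 in the triple mutant and 11034 in the control, and that of 12 bipolar cell genes was 1012 in the triple mutant and 792.6 in the control. Lens and pigment epithelium markers, which belong to neighbouring tissue, summed to 2.11 and 7.65 FPKM in the triple mutant, against 182.5 and 134.9 FPKM in the control.

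The glutamate receptor genes were lower in the triple mutant library as a group, by small amounts. Without a pseudocount the lowest ratios were those of Grin2b, Grin2a, Grm3 and Grik3, each under 5 FPKM in the control. A low level did not always go with a low ratio, since Grik4 and Grin3b, also under 5 FPKM, had ratios above 1. Grm8 and Gria2, at 9.56 and 29.6 FPKM in the control, stood at 61.3% and 66.8% of control. In whole retina, fewer cells of a type and less RNA per cell cannot be told apart. Of the 31 genes, 26 had a log2 ratio of triple mutant to control below 0 and 5 above it (computed after adding a pseudocount of 1 FPKM, which understates the ratio of low genes). A log2 ratio below 0 was found in 49.7% of all 15318 genes used, and in 50.0% of the 13280 genes that had at least 1 FPKM in at least 1 library, called measured here. Of the 23 members with at least 5 FPKM in the control, 20 lay below 0, beside 50.8% of all genes at that level. The 29 measured members had a median log2 ratio of -0.24, beside 0.00 for all measured genes, and 19 of the 29 lay below -0.16, the lower quartile that holds 25.0% of all. Under a size rule of 1 on the log2 scale, 1 member was lower, Grin2b, and 0 were higher, where 0.648% of all measured genes were lower and 1.84% higher. Without the pseudocount, 2 of the 29 measured members were lower by that rule, Grin2b at -1.88 and Grm3 at -1.01, and 0 were higher, where 1.51% of all measured genes were lower and 3.07% higher. Grin2a, which was not measured, stood at -1.17 on that scale. Grin2a and Grin3b stayed under 1 FPKM in both libraries. Grin2b, Grin2c and Grm3 reached 1 FPKM through the control library alone, so passing that minimum leaned them towards a ratio below 0. The counting interval of the ratio lay wholly below 1 for 26 of the 31 members and wholly above 1 for 0, whereas 34.0% of all measured genes with a known length lay below and 32.2% above. In the authors' deposited table none of the 47 member transcripts was called significant, where 0.353% of all 19556 tested transcripts were, and the lowest q-value was that of Grin2b, 0.44.

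**Figure D1:**
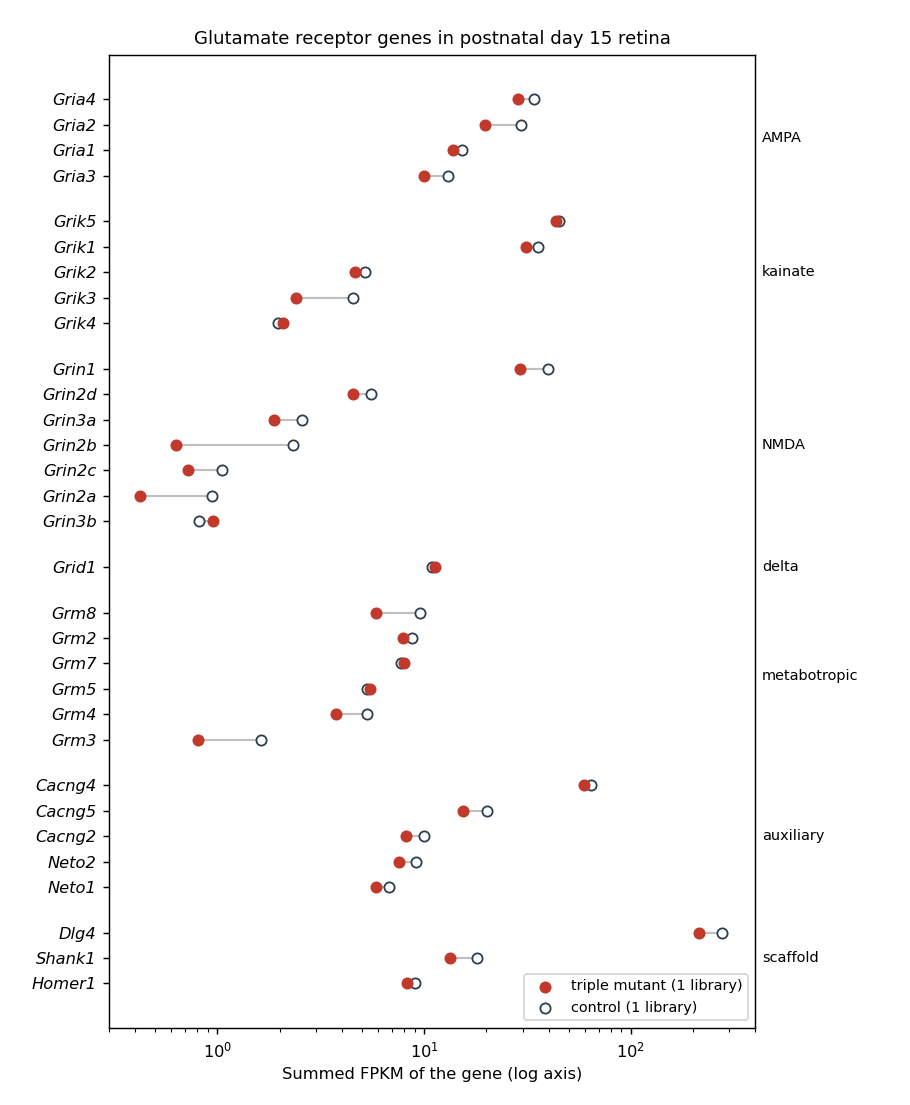
Summed FPKM of each of the 31 genes (log axis) in the triple mutant library (filled points) and the control library (open points), grouped by class. Most filled points lie left of their open point, with the widest gaps at Grin2b (0.628 FPKM in the triple mutant and 2.31 in the control), Grin2a and Grm3.

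**Figure D2:**
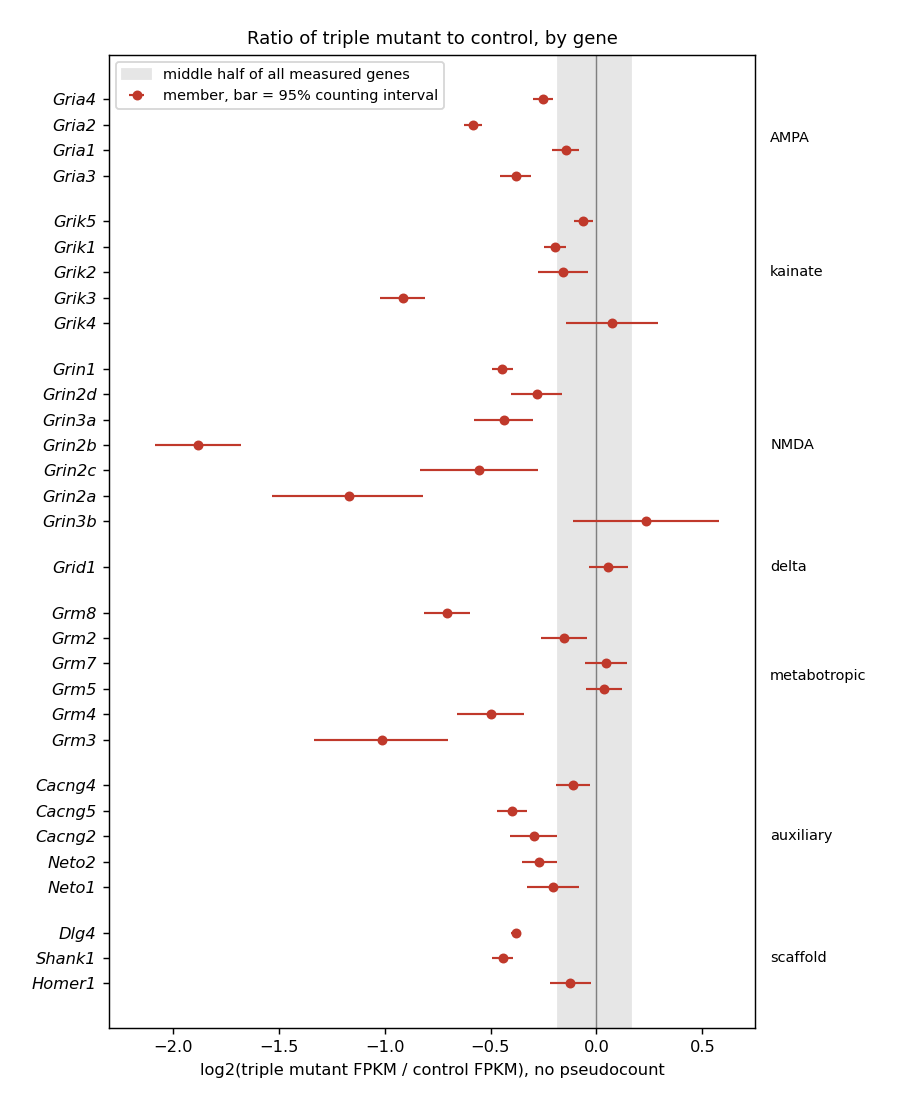
Log2 ratio of triple mutant to control FPKM for each gene, without a pseudocount, with 95% counting intervals. The grey band spans the quartiles of all measured genes, and Grin2b at -1.88 lies farthest from it.

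By class, NMDA receptor genes had the lowest ratio of summed FPKM and the single delta receptor gene the highest. NMDA genes summed to 38.3 FPKM in the triple mutant and 52.8 in the control, 72.5% of the control level, a log2 ratio of -0.46 (-0.51 to -0.42). AMPA genes summed to 72.2 FPKM in the triple mutant and 92.0 in the control, a log2 ratio of -0.35 (-0.38 to -0.32). The metabotropic genes summed to 31.7 FPKM in the triple mutant and 38.3 in the control, a log2 ratio of -0.27 (-0.32 to -0.22). The kainate class came closer to the control, at 83.4 FPKM in the triple mutant and 92.4 in the control, a log2 ratio of -0.15 (-0.18 to -0.12). The intervals of these 4 classes did not overlap, though AMPA ended and metabotropic began at -0.32. Scaffold genes summed to 234.1 FPKM in the triple mutant and 304.1 in the control, a log2 ratio of -0.38 (-0.40 to -0.36). The kainate value was -0.086 in the second deposited table and -0.23 without Grik5, and the metabotropic value was -0.15 without Grm8. In that second table, which was not rescaled, the median log2 ratio of all measured genes was 0.05 (with the pseudocount). Class sums follow their most abundant members, so the subunits are described one by one.

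**Figure D3:**
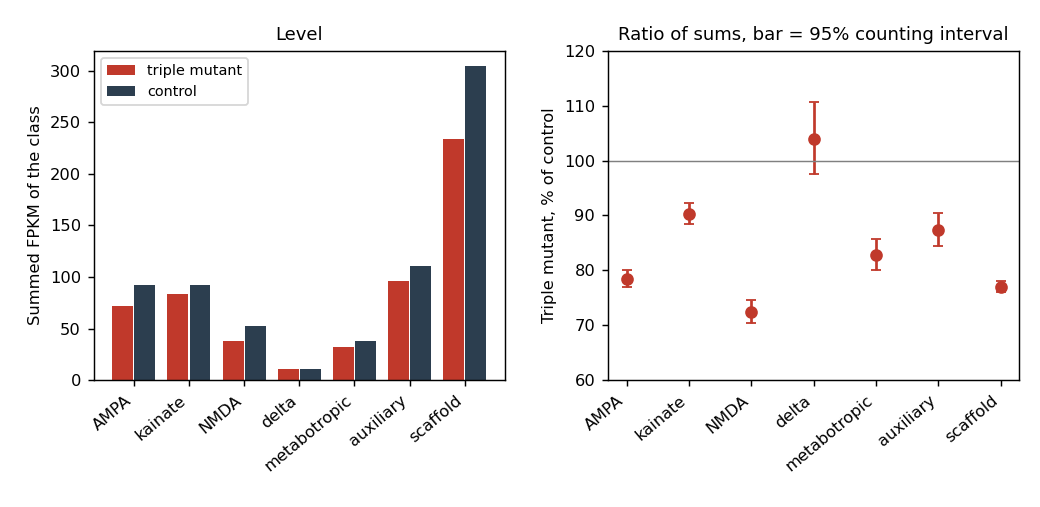
Left, summed FPKM of each class in the triple mutant and control libraries. Right, triple mutant as a percentage of control with 95% counting intervals, from 72.5% for NMDA genes to 104% for the delta gene (the axis runs from 60% to 120%).

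AMPA receptor subunits carry most fast excitatory transmission. Gria4, the most abundant of them here, had 28.6 FPKM in the triple mutant and 34.1 in the control, a fold of 0.840 (0.813 to 0.868). Gria2, whose edited subunit keeps the channel nearly closed to calcium, had 19.7 FPKM in the triple mutant and 29.6 in the control, 66.8% of control, a fold of 0.668 (0.647 to 0.688). Gria3 had 10.05 FPKM in the triple mutant and 13.1 in the control, and its interval (0.731 to 0.808) lay above that of Gria2. Gria1 had 13.8 FPKM in the triple mutant and 15.3 in the control (0.866 to 0.945). All 4 subunits were lower, and Gria2 had the lowest ratio by intervals that do not overlap. Gria2 therefore made up 27.3% of the AMPA sum in the triple mutant and 32.2% in the control, while Gria4 made up 39.6% in the triple mutant and 37.0% in the control. The order Gria4, Gria2, Gria1, Gria3 was the same in both libraries. The Gria3 level depended on the table, with 1 transcript in the main table and 4 in the second. In the second deposited table Gria1 had 14.85 FPKM in the control and Gria3 14.82. The log2 ratio of Gria3, with the pseudocount of 1 FPKM, was -0.38 there and -0.35 in the main table.

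Each AMPA receptor gene has a pair of alternative exons, flip and flop, that encode a stretch next to the last membrane segment and set how fast the channel desensitises. They are shown because the deposited transcripts of Gria1 and Gria4 separate by them (GENCODE M21 on GRCm38, the assembly mm10 denotes, sense strand, capitals mark bases that differ between the flip and the flop exon of 1 gene). The Gria1 exons lie on the plus strand of chromosome 11, flop at 57309769 to 57309883 and flip at 57310608 to 57310722. The Gria4 exons lie on the minus strand of chromosome 9, flop at 4432773 to 4432887 and flip at 4427030 to 4427144.
Gria1 flip: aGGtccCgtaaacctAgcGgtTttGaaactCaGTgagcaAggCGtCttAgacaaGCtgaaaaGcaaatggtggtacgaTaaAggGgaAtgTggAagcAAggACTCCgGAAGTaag
Gria1 flop: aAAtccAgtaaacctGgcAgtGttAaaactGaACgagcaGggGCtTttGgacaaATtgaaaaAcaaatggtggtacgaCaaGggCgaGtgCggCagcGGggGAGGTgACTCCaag
Gria4 flip: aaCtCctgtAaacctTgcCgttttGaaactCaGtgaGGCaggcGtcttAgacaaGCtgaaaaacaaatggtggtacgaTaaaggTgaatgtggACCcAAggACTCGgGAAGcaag
Gria4 flop: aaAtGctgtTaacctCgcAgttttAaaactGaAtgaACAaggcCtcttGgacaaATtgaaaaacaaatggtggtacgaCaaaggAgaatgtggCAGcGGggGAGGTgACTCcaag
The flip and flop exons of a gene have the same length and differed at 36 bases in Gria1 (68.7% identity) and at 31 in Gria4 (73.0%). In Gria1 the flop transcript NM_008165 had 11.5 FPKM in the triple mutant and 13.7 in the control, and the 2 flip transcripts together had 2.29 FPKM in the triple mutant and 1.55 in the control. Flip thus made up 16.6% of Gria1 in the triple mutant and 10.2% in the control. In Gria4 the flop transcript NM_001113180 had 12.6 FPKM in the triple mutant and 16.3 in the control, and the flip transcript NM_019691 had 8.60 FPKM in the triple mutant and 7.63 in the control. Flip made up 40.6% of these Gria4 transcripts in the triple mutant and 31.8% in the control. In both genes flop was lower and summed flip higher in the triple mutant library. Within Gria1 the flip transcripts differed, since NM_001252403 had 1.51 FPKM in the triple mutant and 0.611 in the control, while NM_001113325 had 0.782 FPKM in the triple mutant and 0.940 in the control. The remaining Gria4 transcript, NM_001113181, holds neither exon and had 7.41 FPKM in the triple mutant and 10.1 in the control. The split of a gene among transcripts is an estimate from shared fragments, and its error, which the counting intervals do not include, is not given in the files.

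The Gria2 transcripts could not be sorted by exon in the same way, because NM_013540 and NM_001039195 both match 1 GENCODE transcript. NM_013540 had 11.3 FPKM in the triple mutant and 13.8 in the control, whereas NM_001039195 had 7.27 FPKM in the triple mutant and 13.9 in the control. The share of NM_001039195 was 36.8% in the triple mutant and 46.9% in the control, so most of the Gria2 difference was assigned to it.

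**Figure D4:**
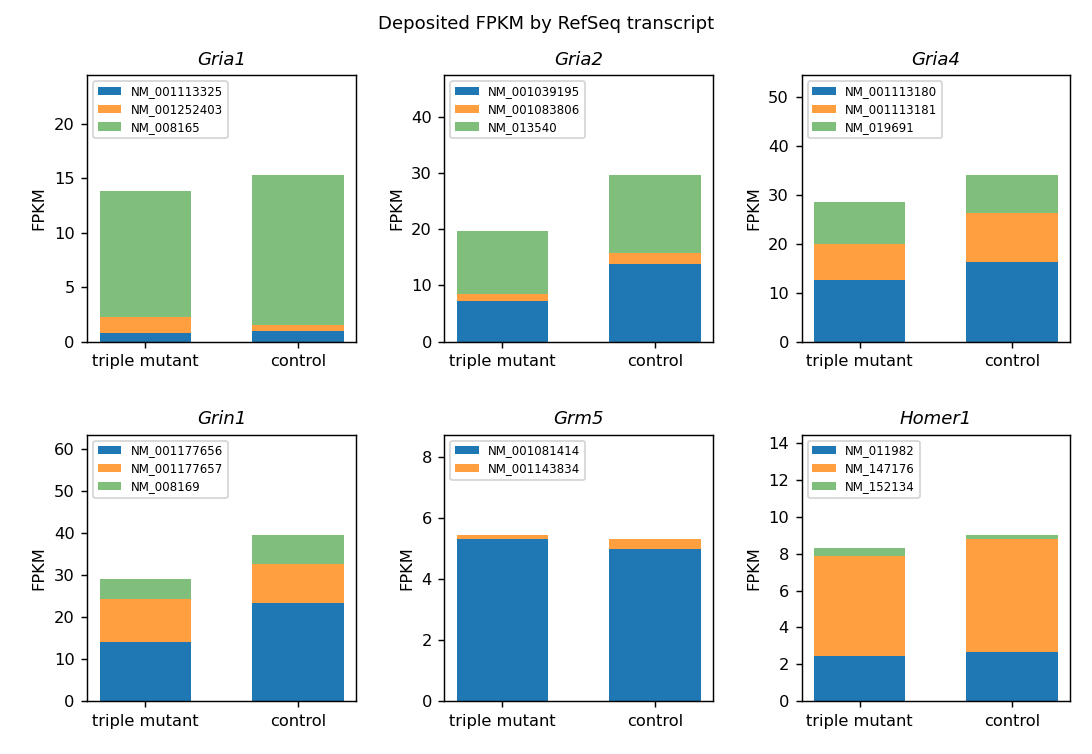
Deposited FPKM of each RefSeq transcript of 6 member genes, stacked, with the triple mutant bar left of the control bar. In Grin1 the blue segment (NM_001177656) is 14.2 FPKM in the triple mutant and 23.4 in the control, while the orange segment (NM_001177657) is 10.2 in the triple mutant and 9.27 in the control.

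Among the kainate receptor subunits Grik3 stood apart with a lower ratio, and the abundant subunits lay nearer the control. Grik5, a subunit that needs a partner from Grik1 to Grik3 to form a channel, was the most abundant, with 43.3 FPKM in the triple mutant and 45.2 in the control, a fold of 0.959 (0.930 to 0.988). Grik1, the subunit known from OFF bipolar cells, had 31.04 FPKM in the triple mutant and 35.5 in the control (0.842 to 0.905). Grik2 had 4.64 FPKM in the triple mutant and 5.17 in the control, 89.8% of control. All 3 had intervals below 1 and above that of Grik3. Grik3 had 2.40 FPKM in the triple mutant and 4.52 in the control, a fold of 0.530 (0.493 to 0.570), with an interval below that of every other kainate gene. Grik4, the other partner-dependent subunit, had 2.08 FPKM in the triple mutant and 1.98 in the control, and its interval (0.907 to 1.22) included 1. The partner-forming subunits Grik1 to Grik3 together stood at 84.2% of control and the dependent subunits Grik4 and Grik5 at 96.2%. Minor transcripts went the other way: Grik2 NM_010349 had 0.351 FPKM in the triple mutant and 0.0675 in the control, and Grik1 NM_146072 had 1.14 FPKM in the triple mutant and 0.630 in the control.

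DNA methyltransferases act at CG dinucleotides, so the 250 bases before the start sites of Grik3, Grik5 and Gria2 are shown. Among measured members with 1 listed start whose window lies outside the annotated gene, Grik3 and Gria2 had the lowest log2 ratios with the pseudocount of 1 FPKM and Grik5 the highest. Grm3, whose window held 8 CG, came next after Gria2 at -0.54, and without the pseudocount it was lower than Gria2 and Grik3. Sequences are printed 5′ to 3′ (RefSeq, GRCm38.p6, capitals mark CG). Methylation was not measured in the data used here, and the counts of CG describe the sequence only. The Grik3 window is chr4:125490446-125490695 on the plus strand, the Grik5 window chr7:25072370-25072619 on the minus strand and the Gria2 window chr3:80802836-80803085 on the minus strand.
Grik3: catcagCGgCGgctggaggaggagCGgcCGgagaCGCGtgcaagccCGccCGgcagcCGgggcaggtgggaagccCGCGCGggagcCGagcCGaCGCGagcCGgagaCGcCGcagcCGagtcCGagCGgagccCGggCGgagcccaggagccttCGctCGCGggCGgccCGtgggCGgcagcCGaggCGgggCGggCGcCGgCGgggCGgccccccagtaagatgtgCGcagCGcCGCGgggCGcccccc
Grik5: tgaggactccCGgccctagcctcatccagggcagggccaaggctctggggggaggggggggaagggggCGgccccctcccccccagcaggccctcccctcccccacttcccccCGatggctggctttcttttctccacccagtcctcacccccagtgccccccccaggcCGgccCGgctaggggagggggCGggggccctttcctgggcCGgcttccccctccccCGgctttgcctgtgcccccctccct
Gria2: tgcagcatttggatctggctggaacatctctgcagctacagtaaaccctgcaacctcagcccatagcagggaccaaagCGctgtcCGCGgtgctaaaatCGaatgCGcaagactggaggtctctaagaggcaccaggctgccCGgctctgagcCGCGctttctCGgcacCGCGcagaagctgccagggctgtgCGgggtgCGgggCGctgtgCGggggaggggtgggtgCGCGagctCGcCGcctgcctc
The Grik3 window held 42 CG dinucleotides, the most of any member start, the Gria2 window 19 and the Grik5 window 8. CG reads the same on both strands, and 92.1% of 32851 promoter windows of this length held at least 1, with a median of 6 and quartiles of 2 and 16. Start sites of 19 members matched the table, 27 in all, with 0 to 42 CG and a median of 12. The members without an entry were Cacng4, Gria1, Gria3, Grid1, Grik1, Grin2a, Grin2b, Grin3a, Grm4, Grm5, Neto1 and Shank1. A high CG count did not go with a low ratio in each case: Grik4, with 36, had a log2 ratio of 0.05. The Grik4 window overlaps the annotated gene, so it was outside the set from which the windows shown were picked.

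NMDA receptors are tetramers of GluN1, encoded by Grin1, with GluN2 or GluN3 subunits, and the GluN2 subunit sets their kinetics. Grin2b, on chromosome 6 (135713233 to 136173511 in GRCm38, minus strand), had 0.628 FPKM in the triple mutant and 2.31 in the control, 3.68-fold lower (3.20 to 4.25). Grin2a, on the minus strand of chromosome 16 (9567898 to 9995560), had 0.421 FPKM in the triple mutant and 0.947 in the control, 2.25-fold lower (1.76 to 2.89). Grin2a and Grin2b encode the main GluN2 subunits of the mature and the early forebrain. Together they stood at 32.2% of control, and the Grin2b value rested on about 264 fragments in the triple mutant and 825 in the control. Grin2d, the most abundant GluN2 gene here, had 4.53 FPKM in the triple mutant and 5.52 in the control (0.756 to 0.894). Grin2c had 0.718 FPKM in the triple mutant and 1.05 in the control, a fold of 0.681 (0.561 to 0.826). All 4 GluN2 genes were lower, and the interval of Grin2b lay below those of the other 3. Grin2d made up 72.0% of the GluN2 sum in the triple mutant and 56.1% in the control, whereas Grin2b made up 9.96% in the triple mutant and 23.5% in the control. In the second deposited table the log2 ratio of Grin2b was -0.99, short of the size rule of 1, and the median of all measured genes was 0.05.

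Grin1 had 29.1 FPKM in the triple mutant and 39.6 in the control, a fold of 0.735 (0.710 to 0.761). The GluN2 sum relative to Grin1 was 21.6% in the triple mutant and 24.8% in the control. Of the GluN3 genes, whose subunits lower calcium entry, Grin3a had 1.89 FPKM in the triple mutant and 2.56 in the control (0.671 to 0.814). Grin3b had 0.957 FPKM in the triple mutant and 0.814 in the control, with an interval (0.926 to 1.49) that included 1. Grin3b exons also lie within Tmem259 on the opposite strand, and without strand information their fragments cannot be separated.

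The Grin1 transcripts differ by the N1 cassette, an exon of 63 bases whose peptide makes the receptor less sensitive to protons (chromosome 2, 25311343 to 25311405, minus strand, GENCODE M21 on GRCm38). It is shown because only NM_001177656 of the 3 deposited Grin1 transcripts holds it.
Grin1 N1 cassette: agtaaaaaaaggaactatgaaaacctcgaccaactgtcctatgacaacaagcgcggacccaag
NM_001177656 had 14.2 FPKM in the triple mutant and 23.4 in the control. The transcripts without the cassette had 10.2 and 4.79 FPKM in the triple mutant (NM_001177657 and NM_008169), against 9.27 and 6.92 FPKM in the control. The share of Grin1 with the cassette was 48.6% in the triple mutant and 59.1% in the control. NM_008169, which alone holds the C-terminal C1 exon, made up 16.4% of Grin1 in the triple mutant and 17.5% in the control.

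The delta receptor gene Grid1, whose product binds cerebellins and organises synapses, had 11.3 FPKM in the triple mutant and 10.9 in the control. Its fold of 1.04 (0.975 to 1.11) was indistinguishable from 1 by counting error.

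Metabotropic receptor genes split into lower and level members. Among group III receptors, which reduce transmitter release, Grm8 had 5.86 FPKM in the triple mutant and 9.56 in the control, a fold of 0.613 (0.568 to 0.661), and Grm4 had 3.75 FPKM in the triple mutant and 5.30 in the control (0.634 to 0.790). Grm7, a presynaptic receptor of the same group, had 7.99 FPKM in the triple mutant and 7.75 in the control, and its interval (0.963 to 1.10) lay above those of Grm8 and Grm4. The group III genes thus did not share 1 ratio. The Grm4 value depended on the table. In the second deposited table, with 2 Grm4 transcripts, Grm4 had 5.11 FPKM in the triple mutant and 6.02 in the control. Its log2 ratio, with the pseudocount of 1 FPKM, was -0.20 there and -0.41 in the main table. Of the group II genes, Grm3 had 0.804 FPKM in the triple mutant and 1.62 in the control, a fold of 0.495 (0.396 to 0.616). Grm2 had 7.87 FPKM in the triple mutant and 8.75 in the control (0.835 to 0.971). Grm5, the group I receptor coupled to calcium release, had 5.46 FPKM in the triple mutant and 5.32 in the control (0.967 to 1.09). Its minor transcript NM_001143834 had 0.140 FPKM in the triple mutant and 0.338 in the control. The order of levels differed: Grm7 and Grm2 came first in the triple mutant, at levels whose intervals overlap, and Grm8 and Grm2 in the control, likewise overlapping.

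Auxiliary subunits were all lower by small amounts. Cacng4, the highest of the 3 TARP genes among the members, had 59.5 FPKM in the triple mutant and 64.2 in the control, a fold of 0.927 (0.877 to 0.979). Cacng5 had 15.4 FPKM in the triple mutant and 20.3 in the control (0.723 to 0.797), and Cacng2, which encodes stargazin, had 8.16 FPKM in the triple mutant and 10.02 in the control (0.753 to 0.880). The kainate receptor partners stood close to each other: Neto1 had 5.84 FPKM in the triple mutant and 6.73 in the control, and Neto2 had 7.60 FPKM in the triple mutant and 9.16 in the control. The class as a whole had a log2 ratio of -0.19 (-0.24 to -0.14), and -0.32 without Cacng4.

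Scaffold genes were led by Dlg4, which encodes PSD-95 and was the most abundant member. Dlg4 had 212.5 FPKM in the triple mutant and 276.9 in the control, a fold of 0.767 (0.757 to 0.778). Shank1, a master scaffold below PSD-95, had 13.3 FPKM in the triple mutant and 18.1 in the control (0.710 to 0.762). Homer1, which links metabotropic receptors to Shank proteins, had 8.28 FPKM in the triple mutant and 9.02 in the control (0.858 to 0.983). The short Homer1 transcript NM_011982, with 5 exons and the form that uncouples these links, made up 29.8% of Homer1 in the triple mutant and 29.7% in the control. PSD-95 is also known from photoreceptor terminals, so Dlg4 in whole retina is not a postsynaptic measure alone.

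Other genes of the glutamate synapse, from lists of 44 genes of which 43 were measured, had a median log2 ratio of -0.15. Of the 43, 34 had a log2 ratio below 0, as did 50.0% of all measured genes, and 20 lay below the lower quartile, which holds 25.0% of all. By the size rule 0 passed, where 0.648% of all measured genes were lower and 1.84% higher. Of 3 receptor genes outside the members 2 lay below 0. Grm6, the receptor of ON bipolar cells, had 61.8 FPKM in the triple mutant and 59.5 in the control. Of 9 further AMPA receptor auxiliary genes 8 lay below 0, with Cnih3 farthest, at 2.30 FPKM in the triple mutant and 3.60 in the control. Of 14 further scaffold genes 13 lay below 0. Homer2 had 2.16 FPKM in the triple mutant and 3.58 in the control, and Dlg2, a relative of Dlg4, had 46.7 FPKM in the triple mutant and 64.0 in the control. The exception was Homer3, named after its value was seen, with 18.9 FPKM in the triple mutant and 15.6 in the control.

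Cell type markers differed between the libraries too, and their part in these differences was not tested. For the counts below, 50.0% of all measured genes had a log2 ratio below 0. All 10 ganglion cell markers had log2 ratios below 0, from -0.74 to -0.36, and summed to 695.1 FPKM in the triple mutant and 1036 in the control (67.1% of control). All 11 amacrine markers lay below 0, from -0.92 to -0.04, and summed to 570.8 FPKM in the triple mutant and 766.7 in the control (74.5%). Of 5 horizontal cell markers 3 lay below 0, from -1.01 to 0.16, and the list summed to 73.0 FPKM in the triple mutant and 94.8 in the control. Of 10 cone markers 9 lay below 0, from -1.95 to 0.66, and the list stood at 66.5% of control. That sum leans on Gnb3, the marker above 0, with 346.6 FPKM in the triple mutant and 218.3 in the control. Bipolar markers were spread on both sides, with 8 of 12 above 0, a range from -0.70 to 0.75 and a sum at 128% of control. Markers of Mueller glia, which also carry glutamate receptors and transporters, had 7 of 9 above 0, from -0.76 to 0.68, and a sum at 106% of control. All 10 microglia markers were above 0, from 0.54 to 2.68, and summed to 131.7 FPKM in the triple mutant and 29.9 in the control. Of 7 astrocyte and oligodendrocyte markers 4 were measured, with a sum of 48.6 FPKM in the triple mutant and 24.2 in the control. Olig2 was listed at 0 in both libraries, and Gfap had 25.6 FPKM in the triple mutant and 7.72 in the control. Of 5 vascular markers 4 lay below 0, and the list summed to 58.3 FPKM in the triple mutant and 61.0 in the control. The median log2 ratio was -0.24 for the measured receptor genes, -0.88 for the cone markers, -0.58 for the ganglion cell markers, -0.34 for the horizontal cell markers, -0.27 for the vascular markers and -0.24 for the amacrine markers. It was -0.06 for the rod markers, 0.08 for the bipolar markers, 0.16 for the Mueller glia markers, 0.49 for the astrocyte and oligodendrocyte markers and 1.48 for the microglia markers.

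**Figure D5:**
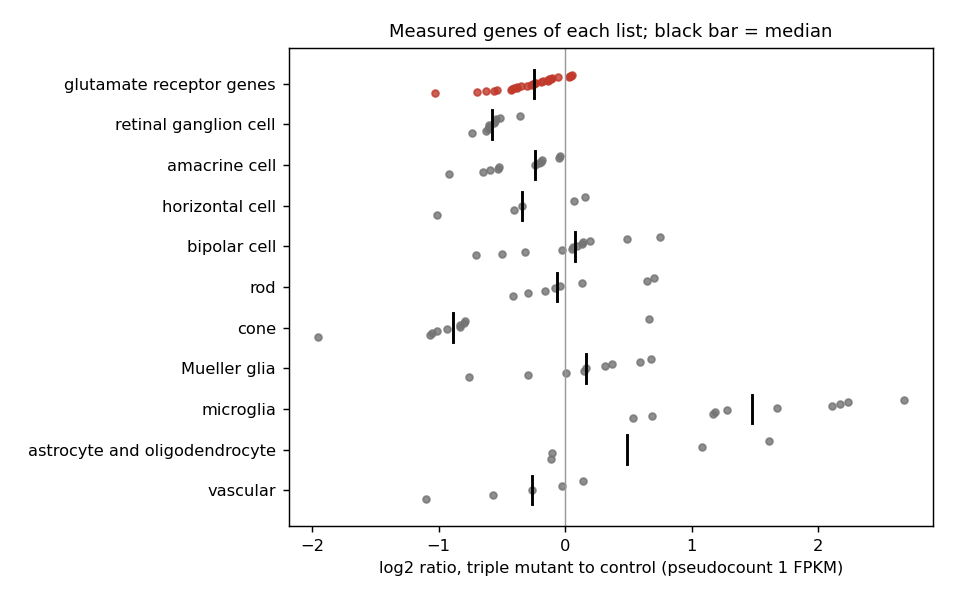
Log2 ratio of triple mutant to control, with a pseudocount of 1 FPKM, for the measured glutamate receptor genes (red) and for cell type markers (grey), with the median of each list as a black bar. The receptor genes spread from -1.02 to 0.05, and the ganglion cell markers from -0.74 to -0.36. Lens and pigment epithelium lists are not drawn.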

How the data were processed

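Total RNA of dissected retinas was sequenced from 1 triple mutant and 1 control library, grouped by the genotype labels. Per the submitters' processing notes the tools were TopHat2 2.0.8 (an aligner) and Cuffdiff 2.1.1 (a test of differential expression) on mm10; the sources used here do not state read layout, strandedness or annotation. The deposited tables hold FPKM for every RefSeq transcript, with the authors' log2 fold change, test statistic (a score), p-value and q-value, per the file headers. The columns were mapped by the sample names inside the tables.

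The planned tests assumed 1 FPKM per gene; the files give it per transcript, so gene FPKM was summed over transcripts in the table with symbols, for genes with at least 1 transcript of status OK and none of failed or excessive-data status (15318 of 23356 symbols). Ratios used a pseudocount of 1 FPKM unless stated. A gene was measured at 1 FPKM in at least 1 library, and the size rule was a log2 ratio of 1. The second table, without symbols, was an alternative, with 98.4% of its 33362 rows matched to a symbol.

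Fragments were recovered from low FPKM of genes with 1 transcript and 3000 bases or more. With a step of 0.0173 FPKM per fragment and kilobase in the triple mutant, 91.6% of 226 values came out whole to within 10% of the step; with 0.0204 in the control, 93.6% of 234 did, where even spacing gives 20%. Lengths came from GENCODE M21 exons inside the deposited loci, with a fragment length of 200 bases. Step and fragment length were those with the largest share of whole values, and exons were clipped to the loci after this was seen to raise that share. Intervals on a gene's ratio are exact binomial (Clopper-Pearson); those on class sums use the Poisson variance. Flip and flop exons were told apart by a script from the translated exon. Ratios and intervals were tested on simulated counts that carried counting error only. That test does not cover differences between animals or the split among transcripts. Alternatives were other pseudocounts, minimum levels and size rules, the second table, rescaling and class sums without the top member. Python 3.11.15, pandas 2.3.3, scipy 1.17.1 and matplotlib 3.10.9 were used.

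The members and lists were chosen with earlier results of these data known, and no list is independent support. All members are named; other glutamate genes were named as the up to 3 largest absolute log2 ratios of a list, transcripts by the largest differences in share, and any further gene after its value was seen. Some genes of these lists are not reported here.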

Additional observations from a re-analysis of the deposited data

How the results depend on the processing

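The direction of all 31 members' log2 ratios was the same in the second table, where Grik5 lay at -0.00021. A pseudocount cannot change that direction, and rescaling to a median of 0 multiplied the triple mutant values by only 1.000001. Neither could therefore have reversed a member. The count of members lower by the size rule was 1 (Grin2b), where 0.648% of all measured genes were lower. With a pseudocount of 5 FPKM it became 0, beside 0.248% of all. It was 0 among genes of at least 5 FPKM, beside 0.553%, and 0 in the second table, beside 0.556%. With no pseudocount, an alternative chosen after seeing the data, it was 2 (Grin2b and Grm3), beside 1.51%. At 1.5-fold it was 3 (Grik3, Grin2b and Grm8), beside 3.04%. In any of these settings 0 members were higher. The share of all genes that were higher ran from 0.693% (pseudocount of 5 FPKM) to 4.29% (1.5-fold). The median of -0.24 became -0.17 with a pseudocount of 5 and -0.19 in the second table, where the median of all genes was 0.05. The second table gave class log2 ratios of -0.30 (AMPA), -0.086 (kainate), -0.40 (NMDA), -0.19 (metabotropic), -0.13 (auxiliary) and -0.32 (scaffold). Without the most abundant member these were -0.41, -0.23, -0.53, -0.15, -0.32 and -0.33, in the same order. Among members of at least 5 FPKM the NMDA value was -0.42. Of 185 values of single members under an alternative, 158 moved by less than the distance from the middle to the end of the counting interval, or under 1 point of class share, and 27 by more. The 185 include the rescaled values, which had almost no room to move. The cause of the larger shifts was not tested. No paired analysis was possible because each group has 1 library. Depth limits Grin2a, Grin2c, Grin3b and Grm3 most, at 102 to 195 fragments in the triple mutant library.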

Other observations

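Of 11 genes that supply and clear glutamate, 7 had a log2 ratio below 0 and 4 above it, with a median of -0.04. Among all measured genes 50.0% lay below 0. Glul, the glutamine synthetase of Mueller glia, had 560.7 FPKM in the triple mutant and 952.3 in the control, whereas the glial glutamate transporter gene Slc1a3 had 121.6 FPKM in the triple mutant and 75.6 in the control. Both genes mark the same cell type, and the other 7 markers of that list ranged from -0.30 to 0.59 on the log2 scale. Of the vesicular transporters, Slc17a6, used by ganglion cells, had 16.2 FPKM in the triple mutant and 27.7 in the control, and Slc17a7, used by photoreceptors and bipolar cells, had 728.1 FPKM in the triple mutant and 847.9 in the control. Slc17a8, found in a class of amacrine cells, had 7.63 FPKM in the triple mutant and 6.62 in the control. The neuronal transporter genes Slc1a1 and Slc1a7 stood at 100.1% and 101.2% of control. Slc17a7, Slc17a8, Slc1a1 and Slc1a7 were named after their values were seen.

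Of 6 extracellular organisers of glutamate synapses 4 lay below 0, beside 50.0% of all measured genes, with a median of -0.07. Nptx1 had 15.98 FPKM in the triple mutant and 24.1 in the control, and its receptor-like relative Nptxr had 18.4 FPKM in the triple mutant and 24.6 in the control. Cbln1, a cerebellin that bridges presynaptic neurexin to delta receptors, had 11.9 FPKM in the triple mutant and 8.89 in the control. These lists were chosen with earlier results of these data known, and no value here was tested.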
